A study of Manihot esculenta with 9 samples.

Results

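Leaves of a pair of cassava lines that carry the same kind of transgene, HOE8 and HOE1, were compared with each other. Cassava (Manihot esculenta) is a starchy root crop, and MeH1.2 is one of its genes for a linker histone. Both lines overexpress MeH1.2. The comparison used 3 libraries of HOE8 and 3 of HOE1, 6 of the 9 libraries sequenced. The remaining 3, from wild-type (WT) leaves, carry no transgene and are given as a level of reference. All groups were untreated seedlings grown for 2 months from stem cuttings in sterile bottles of MS medium, a basic plant culture medium, and leaf RNA was sequenced. Each line was propagated by cuttings, and the labels name a single line for each, so a difference set by the transgene's dose and one set by its insertion site or by tissue culture cannot be told apart. The promoter that drives the transgene was not given in the labels. Libraries are numbered 1 to 3 within a group, but the labels do not say that they came from separate plants. The p-values therefore measure the spread between libraries, which may be partly technical. The labels also give no hour of collection and no batch. A difference between the lines and a difference in hour or batch therefore cannot be told apart, in any gene family described here.

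Linker histones of the H1 family bind the DNA between nucleosomes, where they help to fold chromatin and to set how accessible genes are. Plants carry several H1 genes, some of them used in most tissues and some raised under stress. In Arabidopsis, loss of H1 changes DNA methylation and the packing of transposons and genes. The gene roles given in what follows are those of the Arabidopsis gene that the deposited table matches to each cassava gene, and were not measured in cassava.

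The 6 libraries of the lines held 13272047 to 15717369 counted reads, with reads in 26679 to 27188 genes each. The first principal component of the 9 libraries took 65.6% of the variance and set HOE8 apart from HOE1 and WT; the second took 23.4%. HOE8 library 1 stood somewhat apart from the other HOE8 libraries: the median chi-square between its counts and theirs was 1.83 and 2.03, against 0.766 between HOE8 libraries 2 and 3 and 0.647 to 0.678 within HOE1, where sampling noise alone gives 0.455. Without that library 15785 genes passed the test, compared with 15577 with it. No pair of libraries was as close as sampling noise alone.

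The expression differences between the lines were broad. Of 33033 genes in the table, 23434 passed the count filter and were tested, and 15577 of these (66.5%) differed between HOE8 and HOE1 at an adjusted p under 0.05 in edgeR's quasi-likelihood test. The 2 directions were close to balanced, with 7661 genes (32.7%) higher in HOE8 and 7916 (33.8%) lower. A difference of at least 2-fold was seen in 3036 genes (13%) on the higher side and 2986 (12.7%) on the lower side, and one of at least 4-fold in 1126 (4.8%) and 1177 (5.02%). In 16434 genes (70.1%) the 3 HOE8 libraries did not overlap the 3 HOE1 libraries. A gene family is therefore described by how its members divide between higher and lower and, where given, by its median, beside the shares of all genes given above and their median log2 fold change of -0.01. Levels are CPM (read counts scaled to library size) after TMM scaling, averages are over 3 libraries with their SD, a log2 fold change is HOE8 minus HOE1 with its SE, and where a pair of levels is joined by "against" the HOE8 level comes first. Coordinates are those of the deposited table, for which no genome build is stated in the labels.

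The overexpressed linker histone was high in both lines, and higher in HOE1 than in HOE8. The labels name MeH1.2 without an identifier. Of the 6 genes matched to Arabidopsis H1 genes, the gene raised most in both lines over WT was Manes.08G136300 (chromosome 8, 30254598 to 30255861), a match to H1.2. It had 3236, 3643 and 3157 CPM in the HOE8 libraries and 4567, 4538 and 4746 CPM in the HOE1 libraries, and 154, 152 and 139.6 CPM in WT. Every library of the lines lay far above every WT library, and all 3 HOE1 libraries lay above all 3 HOE8 libraries. The gene was thus 1.38-fold lower in HOE8 (log2 fold change -0.46 ± 0.06, adjusted p = 3.04e-05). It overlaps a neighbouring gene, Manes.08G136400, in the table, so reads in the shared stretch could belong to either.

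Of the other 5 H1 genes, 3 were higher in HOE8 and 2 were not called. Manes.05G086000, also an H1.2 match, had 423, 371 and 357 CPM in the HOE8 libraries and 238, 238 and 234 CPM in the HOE1 libraries, with 226 CPM in WT (log2 fold change 0.70 ± 0.07, adjusted p = 5.76e-06). Its neighbour in the family on chromosome 8, Manes.08G136200, was at 111 against 82.9 CPM, 0.42 ± 0.08. Manes.01G224200 was low in HOE1 and WT (WT mean 0.604 CPM), with 9.605, 8.22 and 8.36 CPM in the HOE8 libraries and 0.777, 1.05 and 0.776 CPM in the HOE1 libraries (log2 fold change 3.32 ± 0.19, adjusted p = 5.84e-08). The match to H1.3, the H1 gene that Arabidopsis raises in drought and low light, was Manes.01G144600; its libraries overlapped between the lines and it was not called (1271 against 1150 CPM, 0.14 ± 0.07, adjusted p = 0.102). It reached that threshold without HOE8 library 3 and with upper-quartile scaling. Manes.15G036800, which overlaps a neighbouring gene, was not called either (24.4 against 25.9 CPM, -0.09 ± 0.09), and was called lower without HOE8 library 1.

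Clock genes held some of the largest differences between the lines. The plant circadian clock is a loop of repressors that take turns over the day. In Arabidopsis, LHY and its partner CCA1 are made around dawn, REVEILLE 8 (RVE8) and the LNK proteins activate afternoon and evening genes, the pseudo-response regulators PRR9, PRR7, PRR5 and TOC1 follow in waves, and GIGANTEA (GI), FKF1 and the evening complex of LUX, ELF3 and ELF4 act late in the day. Of the 37 clock matches tested, 13 were higher in HOE8 and 19 lower, with 8 and 12 of them by 2-fold or more.

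Matches to the dawn repressor LHY were among the largest gains of HOE8. Manes.01G239000 (chromosome 1, 31921231 to 31932186) had 1068, 1332 and 1357 CPM in the HOE8 libraries and 8.33, 8.79 and 8.73 CPM in the HOE1 libraries, and 5.899, 4.98 and 5.11 CPM in WT. All HOE8 libraries stood far above every other library, and the HOE8 mean was 145-fold that of HOE1 (log2 fold change 7.18 ± 0.12, adjusted p = 4.32e-12). The other LHY match, Manes.05G015600, had 1224, 1592 and 1609 CPM in the HOE8 libraries and 19.8, 22.1 and 22.9 CPM in the HOE1 libraries, with 16.7 CPM in WT (log2 fold change 6.09 ± 0.13, adjusted p = 2.06e-11). In both genes HOE8 library 1 was the lowest of the HOE8 libraries. The RVE8 match Manes.09G079800 was at 188 against 5.83 CPM, 5.01 ± 0.12, and the LNK2 match Manes.04G165400 at 162 against 10.5 CPM, 3.94 ± 0.10. Of the LNK1 matches, Manes.06G010600 was at 40.8 against 12.7 CPM, 1.68 ± 0.10 and Manes.14G166300 at 38.2 against 21.1 CPM, 0.86 ± 0.09. RVE1 is a related factor that links the clock to auxin in Arabidopsis, and its matches Manes.01G123100 (465 against 70.9 CPM, 2.71 ± 0.07) and Manes.02G080700 (234 against 118 CPM, 0.98 ± 0.06) were also higher. Of the RVE6 matches, Manes.05G030200 was higher (86.3 against 41.6 CPM, 1.05 ± 0.07), Manes.14G022100 was lower (14.5 against 20.1 CPM, -0.47 ± 0.08), Manes.06G153000 was slightly lower (25.2 against 29.8 CPM, -0.24 ± 0.09), a call that ended under 8 of 12 alternative settings, and Manes.01G253000 was not called (38.3 against 42.1 CPM, -0.14 ± 0.09) except without HOE8 library 1.

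Most of the evening genes differed the other way, and HOE8 had very little GIGANTEA transcript. The GI match Manes.18G095000 (chromosome 18, 8224265 to 8240911) had 0.908, 0.853 and 1.39 CPM in the HOE8 libraries and 472, 462 and 464 CPM in the HOE1 libraries, and 488, 479 and 475 CPM in WT. WT and HOE1 were close to each other and HOE8 lay 441-fold below HOE1 (log2 fold change -8.78 ± 0.12, adjusted p = 2.05e-12). FKF1 is the blue-light receptor that works with GI on flowering time, and its match Manes.15G134900 had 2.42, 1.55 and 2.86 CPM in the HOE8 libraries and 239, 230.2 and 248 CPM in the HOE1 libraries (log2 fold change -6.7 ± 0.14, adjusted p = 2.48e-11). ELF4 has a pair of matches here: Manes.07G129600 had 325 reads in the HOE1 libraries together and 0 in HOE8, so it was at least 95.96-fold lower against a floor of 3 reads over the 3 HOE8 libraries. The other, Manes.10G013000, was uneven within groups and not called (13.4 against 16.3 CPM, -0.27 ± 0.63); HOE1 library 3 was at 1.03 CPM and the other HOE1 libraries at 24.3 and 23.7 CPM, and without that library the gene was called lower. Of the LUX matches, Manes.01G170000 was at 14.8 against 247 CPM, -4.06 ± 0.08 and Manes.02G129800 at 6.13 against 43.7 CPM, -2.83 ± 0.09. The ELF3 matches differed far less, at 63.7 against 97.4 CPM, -0.61 ± 0.07 for Manes.04G136600 and 88.1 against 113 CPM, -0.35 ± 0.08 for Manes.16G077200.

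The pseudo-response regulators divided between genes and, for PRR5, between gene copies. The PRR9 match Manes.01G239500, the earliest of the wave in Arabidopsis, was higher (176 against 102.1 CPM, 0.78 ± 0.08). All 3 PRR7 matches were lower: Manes.07G105100 at 0.554 against 22.2 CPM, -5.31 ± 0.17, Manes.04G027400 at 7.05 against 91.1 CPM, -3.69 ± 0.08 and Manes.08G001600 at 41.6 against 125 CPM, -1.58 ± 0.09. The PRR3 matches Manes.07G104900 (0.226 against 6.07 CPM, -4.69 ± 0.27) and Manes.04G027300 (1.33 against 17.4 CPM, -3.7 ± 0.16) were lower too. PRR5 copies moved apart. Manes.05G016200 had 57.7, 64.1 and 66.6 CPM in the HOE8 libraries and 6.002, 5.18 and 6.01 CPM in the HOE1 libraries, with 3.42 CPM in WT (log2 fold change 3.45 ± 0.11, adjusted p = 3.36e-10). Manes.01G043200 had 7.18, 9.46 and 7.63 CPM in the HOE8 libraries and 98.5, 108 and 102.2 CPM in the HOE1 libraries, with 28.2 CPM in WT (log2 fold change -3.67 ± 0.10, adjusted p = 1.66e-10). HOE8 was thus the highest group for the first copy and the lowest for the second. The TOC1 match Manes.14G081500 was at 51.1 against 98.03 CPM, -0.94 ± 0.06, whereas the TOC1 match Manes.06G089800 was not called (121 against 127 CPM, -0.07 ± 0.06). ZEITLUPE, the photoreceptor that marks TOC1 for breakdown, has the match Manes.06G022700, at 213 against 139 CPM, 0.62 ± 0.05. The matches to LWD1, a WD-repeat clock activator, split into Manes.04G096000 (47.2 against 28.8 CPM, 0.72 ± 0.07) and Manes.11G072300 (35.3 against 92.9 CPM, -1.4 ± 0.08). Because no hour of collection is given, a difference between the lines and a difference in the hour of sampling cannot be told apart for these genes. The same limit holds for the genes below whose level follows the clock or the light.

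**Figure D1:**
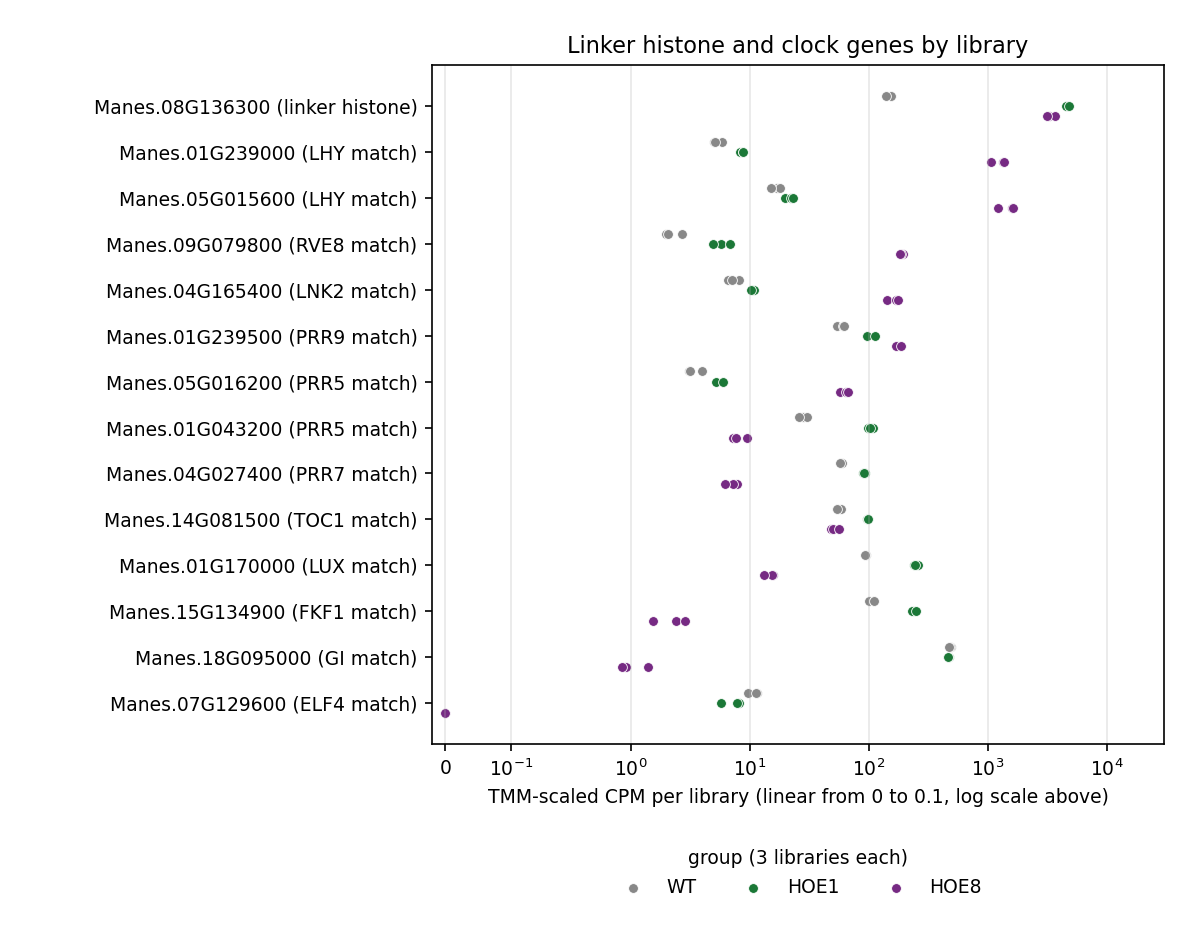
Levels of the overexpressed linker histone and of 13 clock matches in each of the 9 libraries (horizontal axis, TMM-scaled CPM, linear from 0 to 0.1 and on a log scale above; grey WT, green HOE1, purple HOE8, 1 point per library). HOE8 lies to the right of both other groups for the LHY, RVE8 and LNK2 matches and to the left for GI, FKF1, LUX and ELF4, whereas the linker histone is high in HOE1 and HOE8 alike.

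Cycling DOF factors, which in Arabidopsis are expressed in the morning and are removed by FKF1 and GI, were almost all higher in HOE8. Of 7 tested, 6 were higher and 1 lower, with a median log2 fold change of 2.85. The CDF3 match Manes.06G091600 had 71.8, 72.2 and 70.1 CPM in the HOE8 libraries and 0.847, 0.787 and 0.97 CPM in the HOE1 libraries (log2 fold change 6.35 ± 0.11, adjusted p = 7.55e-12). The CDF2 match Manes.01G035000 went from 0.181 ± 0.0879 CPM in HOE1 to 18.5 ± 1.73 CPM in HOE8, and the second CDF2 match, Manes.01G092100, was at 156 against 11.8 CPM, 3.73 ± 0.10. A further CDF3 match, Manes.08G152100, was at 102.9 against 14.2 CPM, 2.85 ± 0.07. The single lower member was the CDF3 match Manes.09G136300 (12.3 against 15.96 CPM, -0.38 ± 0.10).

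Plastid sigma factors, the nuclear-encoded subunits that guide the plastid RNA polymerase to its promoters, went both ways. Of 8 tested, 5 were higher and 3 lower. The sigma factor E match Manes.14G018500 (chromosome 14, 1730454 to 1734600), whose Arabidopsis counterpart SIG5 answers to light and to the clock, had 226, 232 and 232 CPM in the HOE8 libraries and 1.2, 1.38 and 0.905 CPM in the HOE1 libraries, and 1.17, 0.776 and 0.763 CPM in WT. It was low in the 6 HOE1 and WT libraries and high in the 3 HOE8 libraries (log2 fold change 7.62 ± 0.12, adjusted p = 4.71e-12). A second sigma factor E match, Manes.06G157400, was at 35.2 against 9.56 CPM, 1.88 ± 0.10, and the sigma factor A matches Manes.09G130800 (285 against 99 CPM, 1.53 ± 0.05) and Manes.08G159000 (67.5 against 21.8 CPM, 1.63 ± 0.09) were higher. Sigma factor 4 (Manes.10G136500, 10.9 against 74.2 CPM, -2.77 ± 0.06) and sigma subunit C (Manes.03G057200, 40.2 against 110.1 CPM, -1.45 ± 0.07) were lower.

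Genes of the light reactions were higher in HOE8 as a family. Light-harvesting proteins hold chlorophyll around the photosystems. Of 72 members tested, 52 were higher and 10 lower, with a median log2 fold change of 0.91. The median level over members, taken in each group separately and so not always of the same gene, was 313 CPM in HOE8, 96.6 in HOE1 and 48.7 in WT. The LHCB2 match Manes.01G175600 (chromosome 1, 27754704 to 27756090) had 1683, 1422 and 1198 CPM in the HOE8 libraries and 11.02, 11.4 and 11.5 CPM in the HOE1 libraries, and 26.7, 25.1 and 27.1 CPM in WT, so that only the HOE8 libraries were high (log2 fold change 6.99 ± 0.13, adjusted p = 9.45e-12). Its neighbour Manes.01G175700 was at 709.5 against 9.66 CPM, 6.2 ± 0.15. A trio of adjacent LHCB1 genes on chromosome 17 was uneven within groups. Manes.17G066800 had 3912, 3303 and 3231 CPM in the HOE8 libraries and 3.74, 67.4 and 66.8 CPM in the HOE1 libraries (log2 fold change 6.24 ± 1.06, adjusted p = 0.000351), and HOE1 library 1 was far below the other HOE1 libraries. Manes.17G066900 had 29.1, 638 and 633 CPM in the HOE8 libraries and 6.43, 7.34 and 8.02 CPM in the HOE1 libraries (5.9 ± 0.91), with HOE8 library 1 far below the other HOE8 libraries. Manes.17G066700 was lower in HOE8 (4.25 against 55.99 CPM, -3.73 ± 0.63). These are neighbouring genes of 1 family between which reads can be split, so their separate values are uncertain. Manes.07G128500, a match to LHCB4.3, was also lower (26.3 against 78.6 CPM, -1.58 ± 0.08).

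Calvin cycle genes leaned the same way. Of 15 tested, 11 were higher and 1 lower, with a median log2 fold change of 0.69. Rubisco activase, the chaperone that keeps rubisco able to fix carbon, was one of the most abundant leaf transcripts of HOE8. Manes.10G027600 (chromosome 10, 2244212 to 2247341) had 15259.7, 14691 and 14331 CPM in the HOE8 libraries and 2004, 2081 and 2057 CPM in the HOE1 libraries, and 586, 617 and 616 CPM in WT (log2 fold change 2.85 ± 0.04, adjusted p = 2.01e-12). HOE8 was highest, HOE1 next and WT lowest, with no overlap. The second activase gene, Manes.09G095000, was at 1228 against 288 CPM, 2.09 ± 0.07. Sedoheptulose-bisphosphatase, which helps to regenerate the carbon acceptor, was at 639 against 191 CPM, 1.74 ± 0.06 (Manes.10G018100), and a subunit of the chloroplast glyceraldehyde 3-phosphate dehydrogenase at 974 against 441 CPM, 1.14 ± 0.05 (Manes.11G072400). The single lower member was a rubisco small subunit gene, Manes.05G137400 (1843 against 2218 CPM, -0.27 ± 0.06). The mesophyll marker list, which shares activase and light-harvesting genes with these families, was higher in 9 of 12 members and lower in 2; its summed level was 29990 to 32420 CPM in HOE8, 11510 to 11830 in HOE1 and 4294 to 4706 in WT. The largest part of the HOE8 sum was activase gene Manes.10G027600, at a mean of 14760 CPM against 2047. Further abundant markers were also higher. The LHCB1 match Manes.17G066800 was at 3482 against 46 CPM and the glycine decarboxylase match Manes.16G080300 at 2251 against 968 CPM. Differences were small in others: the RBCS3B matches had 213176 reads in HOE8 and 219207 in HOE1. The CA1 match Manes.15G167500 was at 1119 against 939 CPM. No gene in the table matched RBCS1A or RBCS2B. In bulk leaf RNA, more cells of a type and more RNA per cell cannot be told apart, here and for all marker lists that follow, and the part of cell makeup in these results was not tested.

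Light-signalling genes leaned higher, with exceptions among the B-box factors. Of 85 B-box, phytochrome and NPH3 genes tested, 51 were higher and 19 lower. B-box factors are zinc finger proteins that tune the response to light, and NPH3 proteins pass on the signal of the blue-light receptors for bending. The B-box match Manes.15G067100 had 401, 332 and 341 CPM in the HOE8 libraries and 15.5, 14.03 and 14.6 CPM in the HOE1 libraries (log2 fold change 4.6 ± 0.09, adjusted p = 1.67e-11), with its relative Manes.11G082100 at 62.5 against 2.65 CPM, 4.56 ± 0.14. Manes.12G078100 had 6.35, 6.59 and 37.8 CPM in the HOE8 libraries and 0, 0.197 and 0.129 CPM in the HOE1 libraries; HOE8 library 3 was far above the other HOE8 libraries, and the log2 fold change carried a large error (7.15 ± 1.09). An NPH3 gene, Manes.12G134700, was at 32.98 against 0.4502 CPM, 6.18 ± 0.23, and the 33 genes described as NPH3 family held 22 higher and 4 lower. Against this, a pair of matches to a B-box protein with a CCT domain had HOE1 as their highest group. Manes.14G102400 had 176, 165 and 162 CPM in the HOE8 libraries and 1182, 1178 and 1162 CPM in the HOE1 libraries, and 149.8 CPM in WT, and Manes.06G068600 was at 93.8 against 469 CPM, -2.32 ± 0.09. The bZIP factor HY5, the central promoter of greening, has the match Manes.16G120300, at 46.4 against 9.73 CPM, 2.25 ± 0.09.

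Starch and sucrose enzymes were lower more often than higher. Of 56 tested, 28 were lower and 15 higher. Among lower members at 10 CPM or more, those named here are enzymes of starch and glucan breakdown. The debranching enzyme isoamylase 3, Manes.18G063500, had 12.6, 7.83 and 9.02 CPM in the HOE8 libraries and 158, 159 and 159.5 CPM in the HOE1 libraries, and 168 CPM in WT (log2 fold change -4.01 ± 0.13, adjusted p = 6e-10). WT and HOE1 were alike in level and HOE8 was far below both. The alpha-amylases Manes.18G037100 (5.31 against 29.8 CPM, -2.49 ± 0.12) and Manes.01G189800 (11.5 against 56.7 CPM, -2.3 ± 0.11) and the glucan phosphorylase Manes.02G122500 (21.8 against 109 CPM, -2.33 ± 0.08) lay in the same direction. Among the higher members, sucrose phosphate synthase 3F, which makes sucrose for export, was at 168 against 56.7 CPM, 1.57 ± 0.09 (Manes.15G055400), and beta-amylase 7 at 15.5 against 5.57 CPM, 1.47 ± 0.15 (Manes.14G122700).

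Sugar transporters divided into 12 lower and 7 higher of 28 tested. The hexose importers matched to STP1 were highest in HOE1: Manes.16G020100 was at 4.29 against 52.8 CPM, -3.62 ± 0.11 with 10.2 CPM in WT, and Manes.17G033300 at 25.98 against 168 CPM, -2.69 ± 0.07 with 30.9 CPM in WT. The vacuolar transporter TMT2 match Manes.18G002700 was at 39.2 against 69.9 CPM, -0.83 ± 0.06. Higher in HOE8 were a match to SWEET17, a vacuolar fructose carrier (Manes.09G172000, 49.4 against 17.1 CPM, 1.53 ± 0.10), and the polyol carrier Manes.17G099500 (176 against 71.4 CPM, 1.3 ± 0.06).

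Among the 61 families, core histones had the widest gap between the shares of higher and of lower members. These are the H2A, H2B, H3 and H4 proteins around which DNA is wound, and most are made while DNA is copied. Of 46 tested, 37 were higher in HOE8 and 1 was lower, with a median log2 fold change of 1.09. The H4 gene Manes.14G087900 had 14.1, 10.3 and 10.1 CPM in the HOE8 libraries and 1.13, 0.918 and 0.582 CPM in the HOE1 libraries, and 0.852 CPM in WT (log2 fold change 3.71 ± 0.23, adjusted p = 8.68e-08). The H3 match Manes.12G129100 was at 17.9 against 1.42 CPM, 3.64 ± 0.21, the H3 match Manes.14G013600 at 16.99 against 2.08 CPM, 3.03 ± 0.15, and Manes.05G070300, a match to the H2A.X variant that marks DNA breaks, at 15.9 against 1.42 CPM, 3.47 ± 0.18. All of these were at low levels in WT and HOE1. The exception was Manes.03G018100, a match to an H2A.Z variant, with 3.55, 2.48 and 2.57 CPM in the HOE8 libraries and 26.3, 23.3 and 23.1 CPM in the HOE1 libraries (log2 fold change -3.07 ± 0.13, adjusted p = 4.07e-09). H2A.Z marks the first nucleosome of genes and is placed outside DNA replication.

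DNA replication and cell division genes were also higher more often than lower. Of 47 replication genes tested, 24 were higher and 10 lower, with a median of 0.48. MCM proteins form the helicase that opens DNA for copying. The MCM2 match Manes.08G099300 was at 12.8 against 2.59 CPM, 2.3 ± 0.16, the MCM6 match Manes.16G060200 at 10.1 against 2.21 CPM, 2.19 ± 0.17, the MCM7 match Manes.05G003100 at 12.2 against 3.27 CPM, 1.9 ± 0.14 and the MCM4 match Manes.S101400 at 14.04 against 3.88 CPM, 1.86 ± 0.14. DNA polymerase lambda, a repair enzyme, was lower (Manes.01G196700, 6.16 against 11.3 CPM, -0.88 ± 0.11). Of 131 cell cycle, kinesin and tubulin genes, 59 were higher and 38 lower, and at 2-fold or more the split was 45 to 8. Cyclin D3;1 starts the division cycle in response to cytokinin and sugar. Its match Manes.07G076800 had 25.1, 23.5 and 22.7 CPM in the HOE8 libraries and 1.77, 1.64 and 1.099 CPM in the HOE1 libraries (log2 fold change 3.98 ± 0.15, adjusted p = 1.29e-09), and Manes.18G041600 was at 14.3 against 1.301 CPM, 3.46 ± 0.17. Beta-tubulin 8 (Manes.01G166100, 16.2 against 1.92 CPM, 3.07 ± 0.18) and a mitotic cyclin (Manes.03G065100, 11.98 against 2.1 CPM, 2.51 ± 0.20) were higher, whereas beta-tubulin 6 (Manes.01G061400, 129 against 521 CPM, -2.01 ± 0.05) was lower. Shoot meristem markers moved with these families: 9 of 12 were higher and 0 lower, and their summed level was 123.4 to 132.4 CPM in HOE8, 58.56 to 59.81 in HOE1 and 34.98 to 39.15 in WT. CLV3, a marker of the stem cells, was at 0 reads in both lines, and WUS had 0 reads in HOE8 and 5 in HOE1. The part of young or dividing tissue in these results was not tested.

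Chromatin modifiers and DNA repair genes leaned the other way from the histones. Of 75 histone methyltransferases, demethylases, deacetylases and remodelers tested, 31 were lower and 11 higher; without HOE8 library 1, 28 were lower and 19 higher. The SET domain gene Manes.05G113300 was at 21.8 against 54.6 CPM, -1.33 ± 0.07, a jumonji demethylase gene, Manes.17G009900, at 26.9 against 61.7 CPM, -1.2 ± 0.07, and the remodeler match Manes.10G007800, in the other direction, at 27.7 against 12.7 CPM, 1.12 ± 0.13. A pair of genes described by their oxygenase fold match JMJ30, a jumonji demethylase tied to the evening phase of the Arabidopsis clock: Manes.14G013900 was at 0.636 against 13.7 CPM, -4.43 ± 0.26 and Manes.06G168600 at 2.86 against 26.4 CPM, -3.21 ± 0.15. Genes of DNA methylation and small RNA pathways divided into 12 lower and 7 higher of 25. ARGONAUTE 4, which guides DNA methylation, has the match Manes.02G209900 (98.9 against 198 CPM, -1.0 ± 0.08), and dicer-like 4, which cuts small RNAs, the match Manes.14G140300 (4.51 against 12.9 CPM, -1.51 ± 0.16). Chromomethylase 3, which maintains methylation at CHG sites, was higher (Manes.03G089100, 17.4 against 3.99 CPM, 2.12 ± 0.11). The matches to ARGONAUTE 7, which acts in leaf patterning, went both ways: Manes.01G032300 was lower (2.77 against 11.5 CPM, -2.05 ± 0.17) and Manes.05G106500 higher (25.5 against 3.81 CPM, 2.74 ± 0.20). Of 51 repair and recombination genes, 25 were lower and 7 higher. Without HOE1 library 1, 4 were higher and 24 lower, and without HOE8 library 1, 10 were higher and 24 lower. The mismatch repair gene MSH3 match Manes.14G026600 was at 3.72 against 10.3 CPM, -1.47 ± 0.13, and Manes.10G055200, a match to the DNA demethylase DEMETER, at 46.4 against 123 CPM, -1.41 ± 0.15.

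Ribosomal protein genes showed a small shift shared by many members. Of 308 tested, 174 were higher and 32 lower, yet only 5 and 5 by 2-fold or more, and the median log2 fold change was 0.30. The median level over members, taken in each group separately, was 55.9 CPM in HOE8, 46.1 in HOE1 and 60.8 in WT. The S10 match Manes.09G036100 was at 17.9 against 6.57 CPM, 1.45 ± 0.11 and the S5 family match Manes.14G003600 at 372 against 179 CPM, 1.06 ± 0.08. Translation factors had 37 higher and 14 lower of 79, with a match to a subunit of initiation factor 2, Manes.15G099100, at 22.4 against 3.63 CPM, 2.62 ± 0.13 and the chloroplast elongation factor G match Manes.02G035000 at 376 against 163 CPM, 1.21 ± 0.05; the latter overlaps a neighbouring gene. Proteasome subunits, which break down tagged proteins, were lower in 17 and higher in 5 of 33, none by 2-fold. Among the lower members at 10 CPM or more was the inhibitor-related gene Manes.09G098300 (26.4 against 39.4 CPM, -0.57 ± 0.10). Autophagy genes, for the recycling of cell contents, were lower in 9 and higher in 2 of 16 (4 higher without HOE8 library 1, and 1 without HOE8 library 3 or HOE1 library 1 or 2), with the ATG18F match Manes.03G122700 at 45.4 against 98.8 CPM, -1.12 ± 0.07. Nucleolar and rRNA-processing genes had 8 lower and 5 higher of 18 (3 higher without HOE1 library 2); the member with the largest difference was Manes.17G064900, described as a 16S rRNA processing protein of the RimM family (29.8 against 129.9 CPM, -2.13 ± 0.06). Pentatricopeptide repeat proteins, which process organelle RNA, had 104 lower and 77 higher of 285, near the background.

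**Figure D2:**
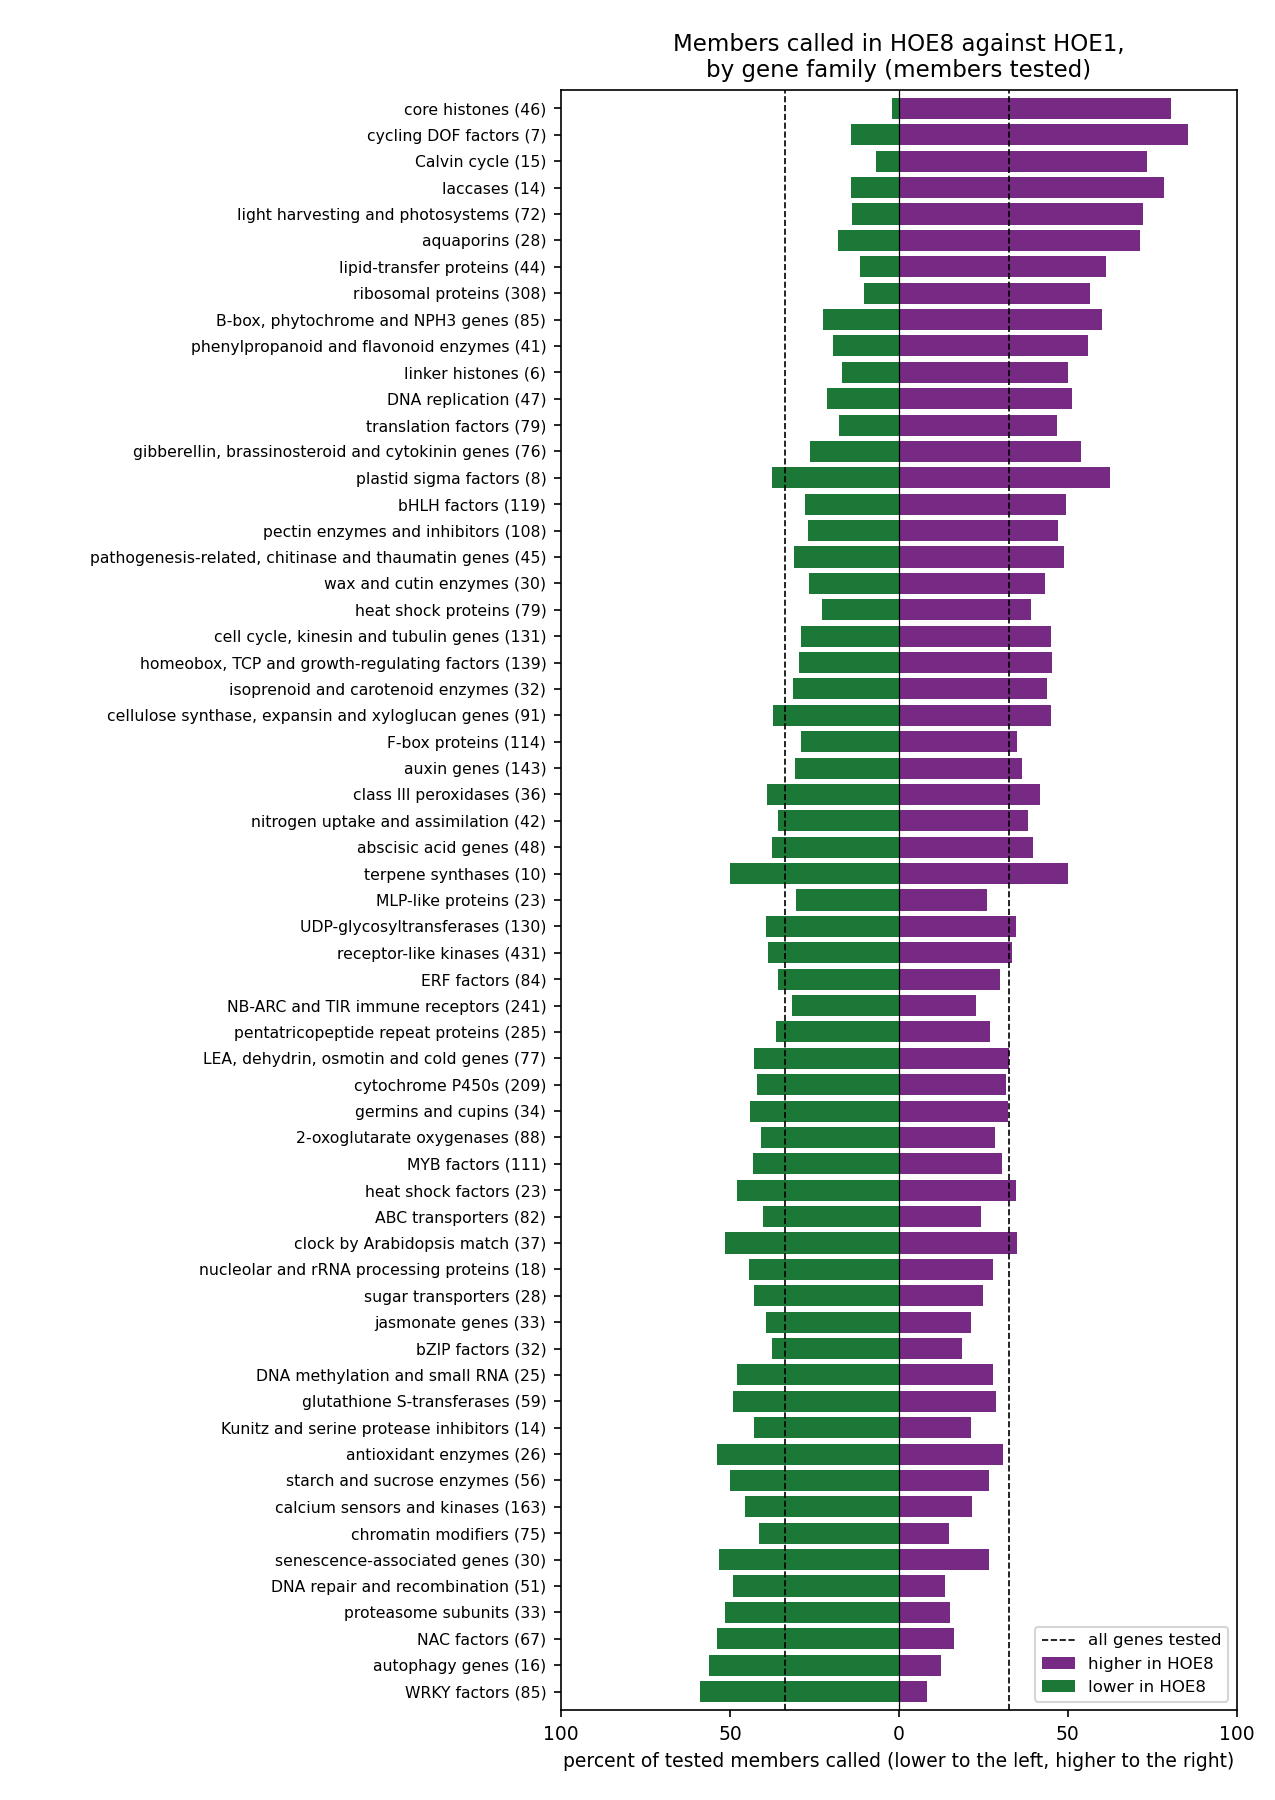
Percent of the tested members of 61 gene families that were called higher (purple, right) or lower (green, left) in HOE8 than in HOE1, with the number tested in brackets. Dashed lines mark the shares over all genes tested, 32.7% higher and 33.8% lower; families are ordered by the gap between both shares, which is widest to the higher side in core histones and to the lower side in WRKY factors.

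WRKY factors, many of which act on defence genes, had the widest gap on the lower side among the 61 families. Of 85 tested, 50 were lower in HOE8 and 7 higher, with a median log2 fold change of -0.84. WRKY33, a regulator of the response to fungi, has the match Manes.09G112700 (chromosome 9, 23539292 to 23541906), with 12.8, 12.1 and 13.7 CPM in the HOE8 libraries and 115, 121 and 120.1 CPM in the HOE1 libraries, and 64.2 CPM in WT (log2 fold change -3.21 ± 0.07, adjusted p = 1.73e-11). HOE1 was the highest group and HOE8 the lowest. Matches to WRKY40, a repressor in the same network, were lower in all 3 named genes: Manes.11G066500 (1.83 against 17.7 CPM, -3.26 ± 0.17), Manes.03G009500 (5.76 against 51.5 CPM, -3.16 ± 0.11) and Manes.16G128900 (6.48 against 50.03 CPM, -2.95 ± 0.11). Of the higher members 2 differed by 2-fold or more, neither of them at 10 CPM, and the largest difference at or above that level was that of the WRKY35 match Manes.05G004300 (70.1 against 43.9 CPM, 0.68 ± 0.07).

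NAC factors, many of which promote stress responses and leaf ageing, were lower in 36 and higher in 11 of 67. The RD26 matches are activators of drought and ageing genes. Manes.03G114200 had 11.6, 10.9 and 10.8 CPM in the HOE8 libraries and 273, 276 and 268 CPM in the HOE1 libraries, and 299 CPM in WT (log2 fold change -4.61 ± 0.06, adjusted p = 1.1e-12), and Manes.15G084800 was at 57.4 against 529 CPM, -3.2 ± 0.05. The NAC047 match Manes.08G147800 was at 33.1 against 297 CPM, -3.16 ± 0.06, and the xylem NAC domain 1 match Manes.11G100100 at 3.86 against 29.3 CPM, -2.92 ± 0.17. Higher were a pair of NAC25 matches, Manes.17G041900 (34.1 against 11.7 CPM, 1.55 ± 0.08) and Manes.08G005600 (10.1 against 4 CPM, 1.34 ± 0.18).

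Senescence-associated genes were lower in 16 and higher in 8 of 30. SAG12, a cysteine protease that marks ageing leaves, has the match Manes.16G038400 (chromosome 16, 4483150 to 4484537), with 0.378, 0.233 and 0.2201 CPM in the HOE8 libraries and 35.6, 41.9 and 37.2 CPM in the HOE1 libraries, and 500.2, 503 and 515 CPM in WT. The groups formed 3 separate steps, WT above HOE1 above HOE8 (log2 fold change -7.07 ± 0.13, adjusted p = 1.07e-11). SAG20 matches Manes.10G006800 (2.71 against 39.3 CPM, -3.86 ± 0.16) and Manes.07G136900 (15.97 against 137 CPM, -3.1 ± 0.06) and the SRG1 match Manes.17G063400 (3.49 against 30.5 CPM, -3.12 ± 0.10) were lower. The SAG21 match Manes.05G061400, which overlaps a neighbouring gene, had 0.681, 0.543 and 115 CPM in the HOE8 libraries and 0.635, 2.62 and 0.388 CPM in the HOE1 libraries. The lines overlapped and its call rested on HOE8 library 3: the log2 fold change was 4.98 ± 1.94 with that library and -0.99 without it. Manes.01G117900 was higher in all HOE8 libraries (583 against 86.8 CPM, 2.75 ± 0.06). The markers of senescing leaf were lower in 10 and higher in 2 of 16 tested, and their summed level was 556.2 to 569.8 CPM in HOE8, 957.8 to 972.8 in HOE1 and 2140 to 2173 in WT. The 2 higher markers were the SAG29 match Manes.13G006800 (6.74 against 1.36 CPM, 2.30 ± 0.16, 99.3 CPM in WT) and the PAO match Manes.04G012500 (127.7 against 98.8 CPM, 0.37 ± 0.06). The part of leaf age in these results was not tested.

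Calcium sensors and kinases were lower in 74 and higher in 35 of 163. SARD1 is a calmodulin-binding-like factor that turns on salicylic acid synthesis. Its matches Manes.S034100 (12.9 against 163 CPM, -3.66 ± 0.06, 62.4 CPM in WT) and Manes.01G014500 (10.97 against 80.3 CPM, -2.87 ± 0.07, 24.96 CPM in WT) were highest in HOE1. Receptor-like kinases, a large family of surface sensors, had 167 lower and 144 higher of 431, near the background in both directions. The lectin kinase Manes.17G046200 was at 3.03 against 60.6 CPM, -4.31 ± 0.15 and the leucine-rich repeat kinase Manes.09G030900 at 12.4 against 0.667 CPM, 4.19 ± 0.17. NB-ARC and TIR receptors, which detect pathogens inside the cell, had 76 lower and 55 higher of 241, fewer called in either direction than among all genes. The higher gene named by the rule, Manes.13G134200, was at 231 against 29.7 CPM, 2.96 ± 0.12.

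Pathogenesis-related, chitinase and thaumatin genes, unlike WRKY factors, were higher more often than lower, 22 to 14 of 45. At 2-fold or more the split was near even, 12 higher to 11 lower. The CAP family gene Manes.06G026900 (chromosome 6, 5956488 to 5957283), of the PR-1 type by its description, had 65.7, 52.6 and 56.04 CPM in the HOE8 libraries and 0.141, 0.328 and 0.194 CPM in the HOE1 libraries, and 1.004 CPM in WT (log2 fold change 7.97 ± 0.19, adjusted p = 4.7e-11). The thaumatin genes Manes.14G170800 (18.9 against 0.993 CPM, 4.23 ± 0.27) and Manes.01G146900 (27.3 against 4.21 CPM, 2.69 ± 0.14) were higher. The pathogenesis-related gene Manes.18G088600 (4.63 against 58.2 CPM, -3.65 ± 0.10) and a match to the EP3 chitinase (Manes.11G130700, 4.91 against 29.4 CPM, -2.58 ± 0.07) were lower, and both had their highest level in WT. MLP-like proteins had 7 lower and 6 higher of 23, a lead that turned under 6 of the alternative settings. Glutathione S-transferases, which detoxify by coupling glutathione, were lower in 29 and higher in 17 of 59, with the GSTU19 match Manes.09G090900 at 2.16 against 54.3 CPM, -4.64 ± 0.14. Antioxidant enzymes were lower in 14 and higher in 8 of 26. The catalase 2 matches, which remove the hydrogen peroxide of photorespiration, split by copy: Manes.05G130500 was at 1815 against 4136 CPM, -1.19 ± 0.04 and Manes.18G004500 at 822 against 1984 CPM, -1.27 ± 0.06, whereas Manes.02G113300 was at 1901 against 443 CPM, 2.1 ± 0.05.

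Heat shock proteins, the chaperones of protein folding, had 31 higher and 18 lower of 79. The HSP70 gene Manes.10G032000 was at 289 against 71.5 CPM, 2.02 ± 0.07, whereas a match to the BiP chaperone of the endoplasmic reticulum, Manes.08G118700, had 0.302, 0.233 and 0.367 CPM in the HOE8 libraries and 21.6, 22.4 and 23.6 CPM in the HOE1 libraries (log2 fold change -6.18 ± 0.14, adjusted p = 2.65e-11). Heat shock factors had 11 lower and 8 higher of 23, with the HSFA4A match Manes.01G129900 at 3.85 against 21.3 CPM, -2.46 ± 0.10 and the HSFB4 match Manes.18G038600 at 14.2 against 1.88 CPM, 2.9 ± 0.18. LEA, dehydrin and cold genes, protectants in drying or chilled cells, had 33 lower and 25 higher of 77. The cold-regulated gene 27 match Manes.18G037600, which in Arabidopsis is also under the clock, had 0.529, 1.16 and 1.32 CPM in the HOE8 libraries and 112, 113 and 113 CPM in the HOE1 libraries (log2 fold change -6.8 ± 0.15, adjusted p = 3.61e-11). The ERD15 match Manes.07G136300 was at 87.3 against 1442 CPM, -4.05 ± 0.12, and the LEA4-5 match Manes.08G044900 had 3 reads in the HOE8 libraries together and 480 in HOE1, a ratio of 142 (95% interval 48.2 to 689.7) by counting error.

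**Figure D3:**
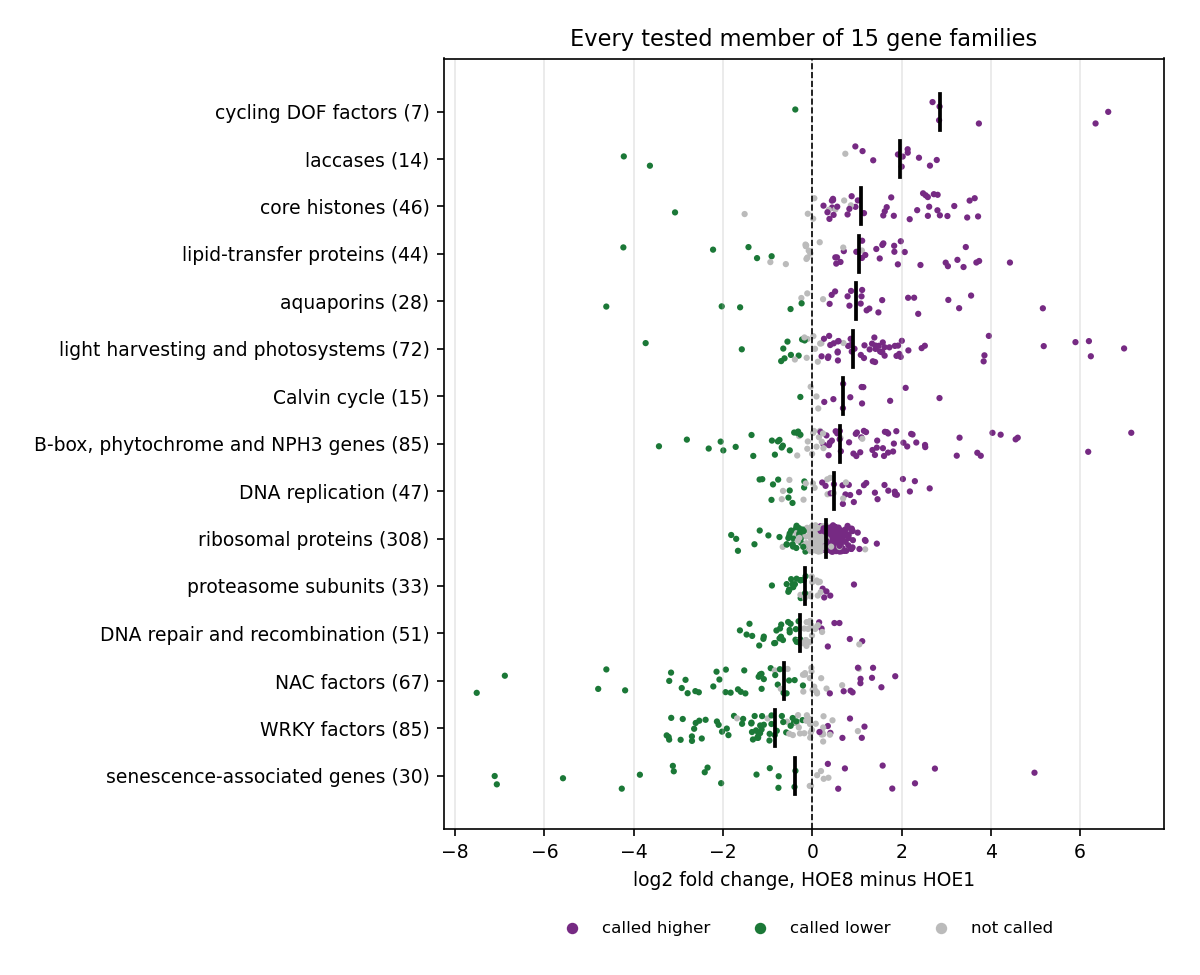
Log2 fold change (HOE8 minus HOE1, horizontal axis) of every tested member of 15 families, with the number tested in brackets, coloured by whether it was called; the short black bar is the family median and the dashed line the median over all genes tested. Core histones lie almost wholly to the right, WRKY and NAC factors mostly to the left, and ribosomal proteins form a narrow cloud to the right of the line.

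Other regulator families held members with large differences in both directions. MYB factors had 48 lower and 34 higher of 111, and at 2-fold or more 34 were lower and 13 higher. Manes.14G098400, a match to a nitrate-responsive repressor, was at 16.6 against 220 CPM, -3.73 ± 0.06. Matches to MYB4, a repressor of phenylpropanoid genes, split into Manes.11G094800 (3.56 against 35.5 CPM, -3.31 ± 0.13) and Manes.13G075100 (20.5 against 5.89 CPM, 1.8 ± 0.14). ERF factors had 30 lower and 25 higher of 84: the ERF112 matches Manes.18G093800 (0.708 against 21.5 CPM, -4.92 ± 0.14) and Manes.02G182000 (0.5803 against 10.9 CPM, -4.21 ± 0.15) were lower, and the matches to AINTEGUMENTA, which keeps organs growing, were higher (Manes.05G184000, 13.03 against 1.11 CPM, 3.54 ± 0.15, and Manes.18G050000, 19.1 against 3.69 CPM, 2.37 ± 0.16). bHLH factors leaned higher, 59 to 33 of 119; the match to GLABRA 3, a trichome factor, was lower (Manes.01G257200, 1.99 against 24.5 CPM, -3.62 ± 0.12). bZIP factors had 12 lower and 6 higher of 32, with bZIP63 matches, which answer to low energy, at 19.98 against 168 CPM, -3.07 ± 0.06 (Manes.08G134500) and 39.4 against 123 CPM, -1.64 ± 0.05 (Manes.09G153300). Homeobox, TCP and growth-regulating genes, a list that by its words also holds TCP-1 chaperonins, had 63 higher and 41 lower of 139. The match to ATHB-2, a shade-avoidance factor, was at 74.4 against 5.47 CPM, 3.77 ± 0.10 (Manes.01G084500), the KNAT1 match, a meristem factor, at 15.04 against 2.89 CPM, 2.37 ± 0.16 (Manes.05G184900), and the homeobox 21 match at 6.38 against 119 CPM, -4.22 ± 0.07 (Manes.13G136800). F-box proteins, which choose proteins for breakdown, had 40 higher and 33 lower of 114.

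Hormone families differed in their lean. Gibberellin, brassinosteroid and cytokinin genes were higher in 41 and lower in 20 of 76. The match to LATERAL SUPPRESSOR, a GRAS factor of branching, had 9.53, 14.4 and 14.5 CPM in the HOE8 libraries and 0, 0.328 and 0.194 CPM in the HOE1 libraries (Manes.01G008100, log2 fold change 6.1 ± 0.40, adjusted p = 1.56e-07). The gibberellin-regulated gene Manes.14G077900 was at 89.4 against 7.54 CPM, 3.57 ± 0.15, and cytokinin oxidase 7, which breaks down cytokinin, at 106 against 21.1 CPM, 2.33 ± 0.06 (Manes.16G085500). Auxin genes had 52 higher and 44 lower of 143, with the repressor matches IAA9 (Manes.13G104700, 17.8 against 4.83 CPM, 1.88 ± 0.15) and IAA14 (Manes.05G084300, 46.5 against 14.9 CPM, 1.64 ± 0.09) higher. Abscisic acid genes were balanced by count of calls, 19 higher to 18 lower of 48. Their larger differences ran mostly lower: 11 of the lower members but only 3 of the higher ones reached 2-fold. The synthesis genes NCED5 (Manes.15G122400, 13.9 against 4.996 CPM, 1.48 ± 0.10) and AAO3 (Manes.04G057100, 40.6 against 16.3 CPM, 1.32 ± 0.12) were higher, and HAI3, a phosphatase gene that abscisic acid induces, was lower (Manes.02G128000, 3.85 against 11.1 CPM, -1.52 ± 0.08). Jasmonate genes had 13 lower and 7 higher of 33; the repressor JAZ1 was lower (Manes.16G093500, 15.9 against 46.7 CPM, -1.55 ± 0.07) and JAZ3 higher (Manes.15G133000, 128 against 59.9 CPM, 1.1 ± 0.05).

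Several wall and surface families leaned higher in HOE8. Laccases, which couple lignin units in xylem walls, were higher in 11 and lower in 2 of 14 tested, out of 26 in the table, with a median log2 fold change of 1.96. They were weakly expressed: the LAC4 match Manes.01G164900 was at 13.6 against 3.33 CPM, 2.02 ± 0.12 and the LAC17 match Manes.11G137900 at 10.8 against 1.73 CPM, 2.64 ± 0.24. The LAC7 match went the other way, with 1.66, 2.09 and 1.98 CPM in the HOE8 libraries and 35.2, 34.8 and 37.6 CPM in the HOE1 libraries, and 216 CPM in WT (Manes.08G083300, log2 fold change -4.22 ± 0.09, adjusted p = 1.77e-11). Xylem markers, a list that shares LAC4 and LAC17 matches with the laccases, were higher in 14 and lower in 1 of 17. Their summed level was 89.09 to 97.7 CPM in HOE8, 36.54 to 39.21 in HOE1 and 58.65 to 61.22 in WT. The lower marker was the VND7 match Manes.18G100800 (1.76 against 5.08 CPM, -1.52 ± 0.14). The other VND7 match, Manes.02G191900, was not called (2.34 against 3.84 CPM, -0.70 ± 0.33), and no gene matched MYB46. The part of vascular tissue was not tested. Class III peroxidases were balanced at 15 higher to 14 lower of 36. Phenylpropanoid and flavonoid enzymes were higher in 23 and lower in 8 of 41. HCT channels phenylpropanoids to lignin, and its match Manes.06G034900 had 577, 522 and 524 CPM in the HOE8 libraries and 25.6, 29.2 and 28.6 CPM in the HOE1 libraries (log2 fold change 4.28 ± 0.09, adjusted p = 1.83e-11). A chalcone synthase gene, the entry to flavonoids, was at 20.1 against 2.04 CPM, 3.29 ± 0.12 (Manes.04G094200), whereas phenylalanine ammonia-lyase 4 (Manes.16G098200, 3.14 against 20.4 CPM, -2.69 ± 0.09) and dihydroflavonol reductase (Manes.05G157000, 20.5 against 80.2 CPM, -1.97 ± 0.06) were lower.

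Pectin enzymes and inhibitors were higher in 51 and lower in 29 of 108, and several members were close to silent outside HOE8. The pectin lyase-like gene Manes.03G209900 was at 23.4 against 0.154 CPM, 7.16 ± 0.23, and the invertase or pectin methylesterase inhibitor genes Manes.15G002000 and Manes.03G045600 at 14.98 against 0.116 CPM, 6.96 ± 0.34 and 14.01 against 0.137 CPM, 6.62 ± 0.37. Cellulose synthase, expansin and xyloglucan genes were near balance, 41 to 34 of 91. Expansins loosen walls during growth, and the expansin A4 match was at 30.4 against 3.32 CPM, 3.19 ± 0.10 (Manes.02G131900); the touch-induced XTH22 match was lower (Manes.14G146100, 2.58 against 22.7 CPM, -3.13 ± 0.13). Lipid-transfer proteins, small secreted carriers of surface lipids, were higher in 27 and lower in 5 of 44 (9 lower without HOE8 library 1, and 3 without HOE8 library 2 or 3 or HOE1 library 1), with Manes.06G046800 at 707 against 55.3 CPM, 3.68 ± 0.05 and the LTP3 match Manes.S095100 at 2.48 against 46.9 CPM, -4.23 ± 0.13. Wax and cutin enzymes had 13 higher and 8 lower of 30; the KCS11 matches split into Manes.15G034900 (106 against 12.5 CPM, 3.09 ± 0.10) and Manes.06G051100 (23.8 against 83.8 CPM, -1.82 ± 0.08), and the cutin enzyme GPAT6 match was at 34.7 against 7.02 CPM, 2.3 ± 0.12 (Manes.09G103500). Epidermis markers summed to 465.3 to 475.7 CPM in HOE8, 421.8 to 429.5 in HOE1 and 987.7 to 998.9 in WT, with 5 of 12 higher and 2 lower; no gene matched ATML1.

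Aquaporins, the water channels of membranes, were higher in 20 and lower in 5 of 28. The PIP2 match Manes.09G068800 had 39.3, 34.7 and 37.3 CPM in the HOE8 libraries and 3.601, 3.02 and 2.85 CPM in the HOE1 libraries, and 33.4 CPM in WT (log2 fold change 3.56 ± 0.10, adjusted p = 2.37e-10), so HOE1 was the low group. The PIP1 matches Manes.07G126600 (59.1 against 7.14 CPM, 3.05 ± 0.09), Manes.11G089300 (47.4 against 4.84 CPM, 3.29 ± 0.10) and Manes.10G016600 (159 against 30.7 CPM, 2.37 ± 0.08) had the same order between the lines. Nitrogen genes were balanced by count of calls, 16 higher to 15 lower of 42. Their larger differences leaned higher, with 11 gains and 3 losses in HOE8 reaching 2-fold. The ammonium transporter AMT1;1 match Manes.03G156400 was at 40.99 against 7.92 CPM, 2.37 ± 0.10, and the nitrate transporter NRT1.5 match Manes.05G061100 at 1.402 against 14.4 CPM, -3.34 ± 0.14 with 91.9 CPM in WT. ABC transporters, pumps driven by ATP, had 33 lower and 20 higher of 82. The PDR12 match Manes.11G063600, an importer of abscisic acid in Arabidopsis, was at 29.4 against 407 CPM, -3.79 ± 0.09, and the PEN3 match Manes.11G034200, which exports defence compounds, at 35.99 against 409.5 CPM, -3.51 ± 0.17. The ABC gene Manes.13G085800 had 109.9, 121 and 128 CPM in the HOE8 libraries and 1.34, 0.984 and 1.16 CPM in the HOE1 libraries (log2 fold change 6.68 ± 0.12, adjusted p = 7.53e-12).

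Families of specialised metabolism had strong members in both directions. Cytochrome P450s, oxidases of many small molecules, had 88 lower and 66 higher of 209. The CYP82C2 match Manes.05G167700 had 2.12, 1.16 and 1.1 CPM in the HOE8 libraries and 311, 317 and 323 CPM in the HOE1 libraries, and 213 CPM in WT (log2 fold change -7.75 ± 0.16, adjusted p = 2.03e-11). The CYP714A1 match Manes.18G123400, of a subfamily that modifies gibberellins, was at 24.1 against 0.132 CPM, 7.4 ± 0.22. UDP-glycosyltransferases, which attach sugars, had 51 lower and 45 higher of 130; Manes.13G056600 was at 1.74 against 75.3 CPM, -5.43 ± 0.11 and Manes.17G122700 at 10.6 against 0.665 CPM, 3.98 ± 0.15. Terpene synthases were evenly split, 5 to 5 of 10 tested, with a median whose sign changed between settings, out of 38 in the table. A terpene synthase 21 match was at 18.1 against 0.824 CPM, 4.44 ± 0.19 (Manes.16G054700) and a terpene synthase 02 match at 0.378 against 11.8 CPM, -4.94 ± 0.23 (Manes.12G076900). Isoprenoid and carotenoid enzymes had 14 higher and 10 lower of 32. Phytoene synthase, the first step to carotenoids, was at 280.2 against 46.4 CPM, 2.59 ± 0.05 (Manes.01G124200). Oxygenases of the 2-oxoglutarate type had 36 lower and 25 higher of 88, with Manes.04G109700 highest in HOE1 (180 against 999 CPM, -2.47 ± 0.05, 187 CPM in WT). Germins and cupins had 15 lower and 11 higher of 34; Manes.17G113900 was at 4.21 against 184 CPM, -5.45 ± 0.10 with 696 CPM in WT. Of the Kunitz and serine protease inhibitors 6 were lower and 3 higher of 14.

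The 8 described genes with the largest differences in each direction were taken from called genes with at least 10 CPM in the higher line and no overlap. On the higher side, besides the LHY match, the sigma factor E match, the CAP gene, the B-box gene, the pectin lyase-like gene and the P450 gene already given, were the acyltransferase gene Manes.11G003200 and the RCC1 family gene Manes.07G119800. Manes.11G003200 had 20.7, 16.7 and 18.1 CPM in the HOE8 libraries and 0.0706, 0 and 0.194 CPM in the HOE1 libraries (log2 fold change 7.57 ± 0.38, adjusted p = 1.58e-08). Manes.07G119800 had 76.2, 76.5 and 82.96 CPM in the HOE8 libraries and 0.282, 0.721 and 0.323 CPM in the HOE1 libraries (log2 fold change 7.43 ± 0.19, adjusted p = 8.93e-11). Neither was above 1 CPM in any WT or HOE1 library.

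On the lower side, 5 of the 8 genes are B3-domain factors, a class of DNA-binding proteins in leaf shape, auxin and seed programmes. A cluster of 3 genes on chromosome 7 matches NGATHA4, which in Arabidopsis belongs to a group that shapes leaf margins and the style. Manes.07G020700 (chromosome 7, 1937142 to 1937910) had 0, 0.3102 and 0.0734 CPM in the HOE8 libraries and 123, 119 and 121 CPM in the HOE1 libraries, and 178, 175 and 173 CPM in WT (log2 fold change -9.81 ± 0.24, adjusted p = 5.55e-11). The 3 HOE8 libraries held 5 reads of it in all. Manes.07G020500 was at 0.229 against 54.4 CPM, -7.86 ± 0.17 with 96.7 CPM in WT, and Manes.07G021000 had 2 reads in HOE8 and 826 in HOE1. The match to ARF5 or MONOPTEROS, the auxin factor of vein formation, was Manes.10G124800 (chromosome 10, 23660529 to 23660914), with 0, 0 and 0 CPM in the HOE8 libraries and 16.9, 17.1 and 15.5 CPM in the HOE1 libraries, and 17.3, 14.5 and 17.8 CPM in WT. With 740 reads in HOE1 and 0 in HOE8, it was at least 219-fold lower. By these coordinates the locus is short, as is that of Manes.07G021000 (1972940 to 1973380). Whether either holds a whole factor gene or a part of one was not tested. The ABI3 match Manes.13G043500, a seed maturation factor in Arabidopsis, had 0, 0 and 0 CPM in the HOE8 libraries and 14.6, 13.8 and 14.4 CPM in the HOE1 libraries and was at least 189-fold lower. The DnaJ chaperone gene Manes.17G076700 had 0, 0 and 0 CPM in the HOE8 libraries and 20.3, 19.02 and 18.4 CPM in the HOE1 libraries and was at least 255-fold lower, and the carboxylesterase gene Manes.14G080200, with 488 reads in HOE1 and 0 in HOE8, at least 144-fold.

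Genes with almost no reads in 1 line were more numerous on the HOE8 side; those named here beyond the rule were chosen after their values were seen. With 3 reads or fewer over the 3 libraries of 1 line and at least 5 CPM in the other, 22 genes were off in HOE8, 17 of them described, and 4 were off in HOE1, 3 of them described. The described genes off in HOE1 were the cupin gene Manes.08G131300, with 7.87, 4.27 and 6.75 CPM in the HOE8 libraries and 0, 0 and 0 CPM in the HOE1 libraries and so at least 94.5-fold higher in HOE8, the MYB111 match Manes.03G201700, a flavonol regulator in Arabidopsis, with 5.52, 5.58 and 5.501 CPM in the HOE8 libraries and 0.141, 0.0656 and 0 CPM in the HOE1 libraries, and the CYP714A1 match Manes.18G123000. Among the genes off in HOE8 and not yet named were a glyoxalase gene (Manes.04G115700, 445 reads in HOE1 and 0 in HOE8), the ALD1 match Manes.18G071300, which makes the defence signal pipecolic acid in Arabidopsis (291 reads and 0), and a pair of neighbouring pyridoxal phosphate enzyme genes, Manes.16G010900 and Manes.16G011000. A zero in bulk counts bounds the level at this depth and does not show that the gene is missing from the genome.

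**Figure D4:**
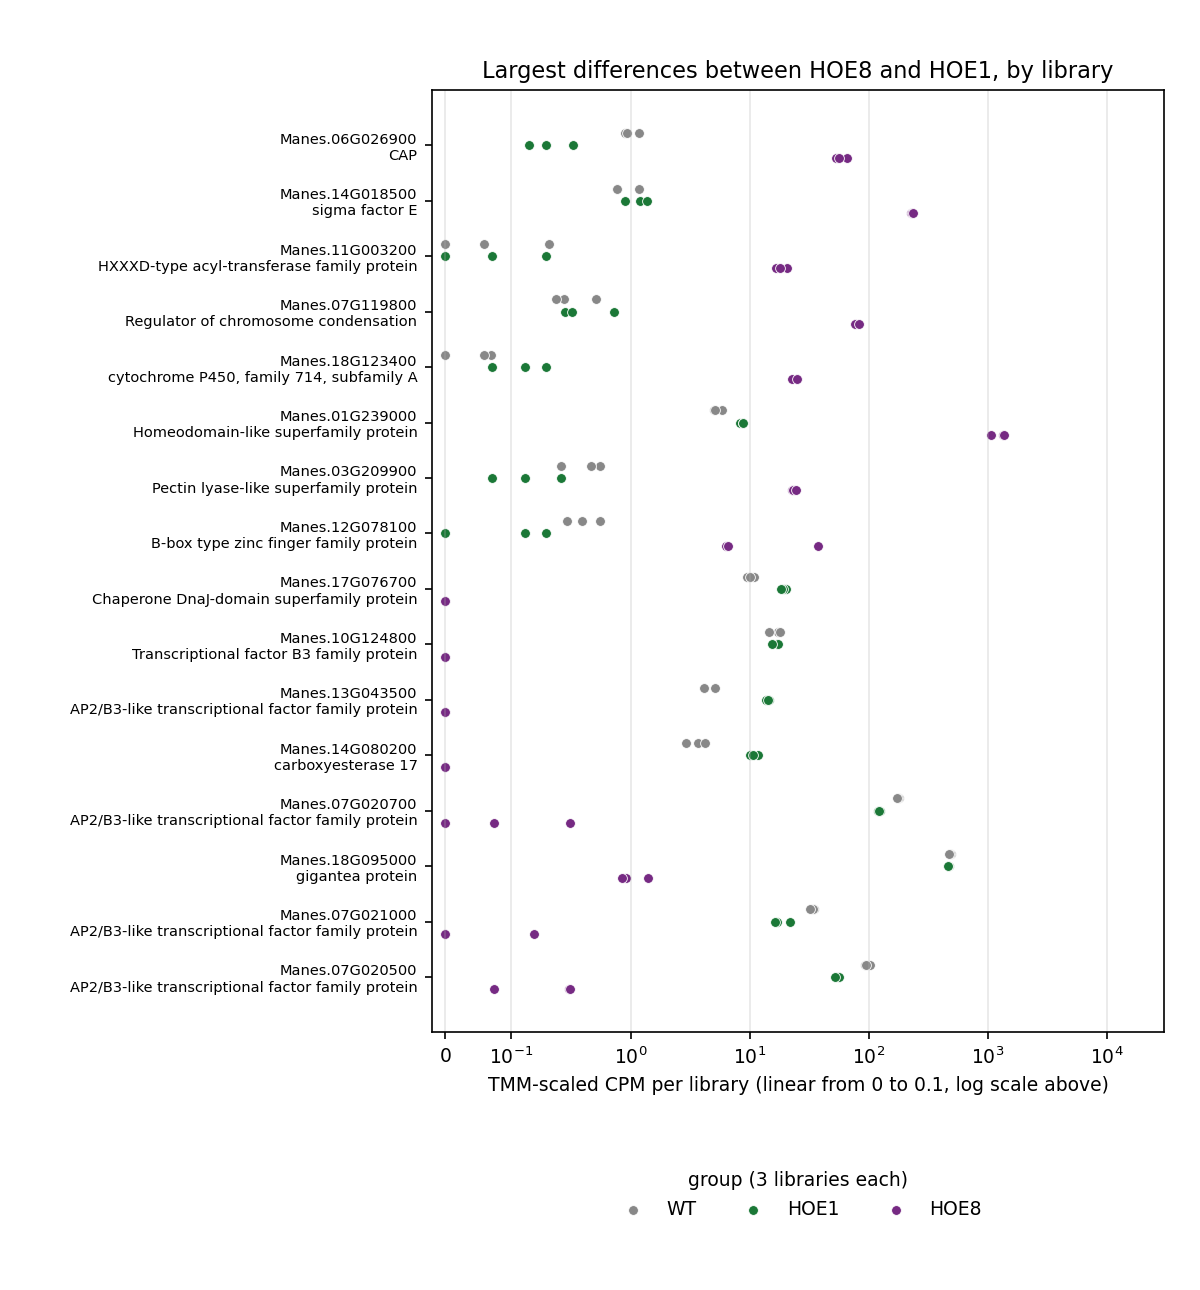
Levels in each of the 9 libraries (horizontal axis, TMM-scaled CPM, linear from 0 to 0.1 and on a log scale above) of the 8 higher and the 8 lower described genes with the largest log2 fold change between HOE8 (purple) and HOE1 (green), with WT in grey. HOE8 stands apart from HOE1 and WT in all 16 genes; in the B-box gene 1 HOE8 library is far above the other two.

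By the deposited FPKM values, which are scaled to gene length and so allow genes to be ranked against each other, the most abundant transcripts also differed; these genes were chosen by that rank. A rubisco small subunit gene, Manes.01G011500, was first in both lines, at a mean of 7076 FPKM in HOE8 and 6528 in HOE1, and was not called (log2 fold change 0.13, adjusted p = 0.146). Rubisco activase Manes.10G027600 was second in HOE8 at 6191 FPKM and stood at 869.4 in HOE1, and the fructose-bisphosphate aldolase gene Manes.04G083800, of the Calvin cycle, was at 1884 and 380.2. In HOE1 the overexpressed linker histone was second at 3884 FPKM; in HOE8 its rank was 4, at 2780. A trio of genes among the 10 most abundant in HOE1 was minor in HOE8. The asparagine synthase gene Manes.02G212800 had 53.24, 53.07 and 50.74 FPKM in HOE8, 1586, 1560 and 1604 in HOE1, and a mean of 472.1 in WT. The DnaJ gene Manes.11G068500 had 30.65, 27.1 and 24.92 FPKM in HOE8 and 1570, 1500 and 1541 in HOE1. The MEE59 match Manes.02G122700 had 42.18, 31.55 and 30.06 FPKM in HOE8 and 1504, 1506 and 1535 in HOE1. The log2 fold changes of these 3 genes were -4.9, -5.78 and -5.43, with adjusted p of 4.67e-13, 2.07e-12 and 3.32e-11, and the lines did not overlap. Asparagine synthase stores nitrogen when sugar is short and is raised in darkness in Arabidopsis. The RNA-binding gene Manes.17G101400, by its description under cold and circadian control, was at 281.8 FPKM in HOE8 and 1684 in HOE1.

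Some differences ran along the chromosome. Runs of at least 3 neighbouring tested genes with the same Arabidopsis match, all called in the same direction at 2-fold or more, numbered 13 with 45 genes on the lower side and 4 with 13 genes on the higher side. Same-match runs that did not pass this rule were not counted, so no share of all such runs can be given. On chromosome 7 (3157305 to 3205113) 5 genes matched to UGT85A2 had log2 fold changes of -4.65 to -2.14. On chromosome 5 (19701065 to 19816884) 4 CYP83B1 matches ran from -4.7 to -1.83, and on chromosome 17 (20190971 to 20278248) 4 SRG1 matches from -7.11 to -1.25. A run of 4 CYP714A1 matches on chromosome 18 (12256594 to 12704084) was higher by 3.42 to 7.4. Neighbours with the same match can share reads between like copies, so the members of a run are not independent counts. By whole chromosome the share of genes called ranged from 63.9% on chromosome 9 to 70.3% on chromosome 13, and was 62.6% on unplaced scaffolds.

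Grouping the genes by the exact wording of the description column gave 142 families of at least 15 tested members. In 70 of them more members were higher than lower, and in 67 more were lower. The families most one-sided to the higher side were histone superfamily proteins (23 of 28 higher, 0 lower), helicases with an ATP-binding description (15 of 19 higher, 0 lower), microtubule motor proteins (12 of 16 higher, 2 lower) and mitochondrial transcription termination factors, which act in organelle gene expression (27 of 44 higher, 3 lower). To the lower side were WRKY family factors (10 of 17 lower, 0 higher), ubiquitin-like proteins (13 of 21 lower, 1 higher), DEAD-box RNA helicases (9 of 15 lower, 1 higher) and pseudouridine synthases (11 of 20 lower, 1 higher), the latter pair acting on RNA. Genes described as putative TIR-NBS-LRR resistance proteins held 14 lower and 3 higher of 22.

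Markers of guard cells, phloem and root were read too. Guard cell markers summed to 173 to 174.8 CPM in HOE8, 121.3 to 127.2 in HOE1 and 111.1 to 115.7 in WT, with 6 of 11 higher and 4 lower and no gene matched to SLAC1. Within them the early stomatal genes were few in reads: the SPCH matches had 161 reads in HOE8 and 12 in HOE1, and the TMM match 133 and 7. The 4 lower markers were the MYB60 match (419 reads in HOE8 and 791 in HOE1) and a copy each of FAMA, KAT1 and HT1. FAMA, KAT1 and HT1 each also had a copy called higher. Phloem markers summed to 140.2 to 143 CPM in HOE8, 238.2 to 249.8 in HOE1 and 313.7 to 331 in WT; SUC2, a sucrose carrier of the phloem, had 2765 reads in HOE8 and 8216 in HOE1, and 4 of 10 markers were higher and 1 lower, SWEET12 matches were at 0 in both lines and no gene matched SWEET11. Root markers were at 55.51 to 60.66, 39.41 to 43.07 and 31.76 to 36.1 CPM, with 4 of 6 higher and 1 lower. All 6 were SHR or SCR matches. The SHR matches had 905 reads in HOE8 and 579 in HOE1, and the SCR matches 1430 and 1277. The NRT2.1 match had 0 reads in HOE8 and 17 in HOE1, and the PLT2 match 0 and 1. PLT1 was at 0 in both lines and no gene matched RHD6 or COBL9. Every library held the mesophyll markers of leaf at a summed 4294 CPM or more.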

How the data were processed

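Leaf RNA of 3 WT, 3 HOE1 and 3 HOE8 libraries was measured by RNA-seq. The authors deposited raw counts per gene and FPKM values per gene, 1 column of each per library. Per the submitters' processing notes, HISAT2 2.0.4 and StringTie 1.3.0 were among the tools. The build of the genome, the counting tool and the strand setting were not given in the sources used here, so reads of overlapping or antisense genes, and of near-identical copies, may be shared. The HOE8 titles call it line 8 and its genotype field line 2.

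Counts of all 9 libraries were fitted together in edgeR 4.0.16 (R 4.3.3) with TMM scaling, filterByExpr at a minimum count of 10 (9599 of 33033 genes left out) and the quasi-likelihood test; p-values were Benjamini-Hochberg adjusted over 23434 genes and called under 0.05. The common biological coefficient of variation was 12.1%. SEs were taken from the fold change and its F statistic. The fit was also run on simulated counts in which only a small set of genes was changed. That run does not check scaling or calls under a difference as broad as the one seen here. Intervals and floors (3 reads over a line's 3 libraries) cover counting error only, at 95%.

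The 61 families were built from descriptions or Arabidopsis matches, and families and members were chosen with earlier results of these data known. Named genes are linker histones; clock matches at 5 CPM or more; the 8 largest described differences each way; and, per family, up to 4 called genes in the leading direction and 2 in the other at 10 CPM or more. The text prints a selection of them. Alternatives were other scalings, no filter, the 6 libraries alone, DESeq2 1.42.0, a replicate block, each library left out, and glmTreat at 1.5-fold. Replicate numbers were not taken to pair libraries.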

Additional observations from a re-analysis of the deposited data

How the results depend on the processing

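The number of genes called stayed between 14498 and 16054 under all settings except a test against a 1.5-fold change (glmTreat), which called 7175 (3536 higher, 3639 lower). Relative log expression scaling called 15580, upper-quartile scaling 15674 (54.9% of calls higher, against 49.2%), no count filter 16054 of 29647, the 6 libraries alone 14811 and DESeq2 14859. Leaving out 1 library gave 14498 to 15785. No gene called here was called in the opposite direction under another setting. The libraries share only a number: same-numbered libraries correlated at 0.023, 0.023 and 0.01, and the fit with the replicate block called 15298 (7516 higher, 7782 lower). Of 388 named genes, 8 changed under some setting; over 4655 values 10 reversed, 16 fell short of the threshold and 5 passed it. Manes.05G061400 ran from -0.99 (without HOE8 library 3) to 6.23 (without HOE1 library 2) with a library left out, and was 4.22 (adjusted p = 0.0502 in edgeR) with the replicate block. Manes.10G013000 was 0.12 and 0.10 without HOE1 libraries 1 and 2, and -0.84 without library 3. Manes.11G021100 was 0.018 with relative log expression scaling, 0.0177 with DESeq2, 0.0719 with upper-quartile scaling, and -0.21 to 0.16 with a library left out. Among the family medians that changed sign were class III peroxidases (0.34 with the 6 libraries alone), terpene synthases (-0.73 with the 6 libraries alone, -0.72 to 0.64 with a library left out), germins and cupins (1.10 with no filter) and Kunitz inhibitors (-0.18 with no filter), beside others near 0. The leading direction turned under some settings for MLP-like proteins, UDP-glycosyltransferases, class III peroxidases, F-box proteins, germins and cupins, and abscisic acid genes. The cause was not tested. Each line was 1 transgenic line with 3 libraries, and genes of a few reads are bounded only by counting error.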
